A study of Homo sapiens with 4 samples.

Results

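Wnt signalling was followed in human lung fibroblasts depleted of HMGB1, an abundant nuclear protein, through 10 genes chosen by symbol. These were the ligands WNT2, WNT5A and WNT5B, the antagonists DKK1 and SFRP1, and the Dickkopf family gene DKK3. The others were the co-receptor LRP6, the transducer CTNNB1, the transcription factor TCF7L2 and the target gene AXIN2. All 10 had a row on a primary chromosome among the 63677 genes of the count files, and all 10 had enough reads to be tested. The cells were IMR90, a strain of normal fetal lung fibroblasts, of which the isolates I90-10 and I90-79 were used. Each isolate was transfected with RNAiMAX once with a non-targeting control (NTC) siRNA and once with siRNA against HMGB1, and the labels give 72 h for the knockdown. This gave 2 control and 2 HMGB1 knockdown libraries of poly(A)-selected RNA, replicate 1 from I90-10 and replicate 2 from I90-79, with no untransfected cells. The methods of the study name a pair of siRNAs for IMR90 without saying how they were given to the libraries.

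Wnt proteins are secreted, lipid-modified ligands that bind Frizzled receptors on the cell surface. In the canonical branch the co-receptors LRP5 and LRP6 join the complex, β-catenin (encoded by CTNNB1) escapes degradation and, with TCF/LEF factors such as TCF7L2, switches on targets such as AXIN2, which feeds back to restrain the pathway. Dickkopf proteins such as DKK1 block the co-receptors and secreted Frizzled-related proteins such as SFRP1 bind Wnt ligands outside the cell. WNT5A and WNT5B are best known for β-catenin-independent signals in cell polarity and movement, and fibroblasts of the developing lung are a source of WNT2 and WNT5A.

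The libraries held between 29861687 and 35317010 reads counted on genes. HMGB1 had 181 and 237 CPM (reads relative to the library total, scaled by the TMM method) under control siRNA and 16.0 and 18.9 CPM after knockdown. By the quasi-likelihood test of edgeR its log2-fold change was −3.59, with a standard error (SE) of 0.19 and an adjusted p of 0.0075. All 9 fibroblast markers listed, among them COL1A1, DCN and PDGFRA, were above 1 CPM in every library, with a summed level of 18785 to 34666 CPM in control and 21484 to 33566 CPM in knockdown libraries, and 3 of 4 lung mesenchyme markers were also above 1 CPM, TBX4 being the exception. The 6 leukocyte markers together reached at most 0.346 CPM, with CD3E and LYZ at 0 counts in every library. Of the 6 epithelial markers, EPCAM, CDH1, KRT19 and CLDN4 did not reach 1 CPM in every library, while the sum of all 6 was 64.9 and 68.8 CPM in control and 82.4 and 99.2 CPM in knockdown libraries, and the part of that difference in the results was not tested. Of the 5 endothelial markers found, TEK alone was above 1 CPM in every library, and the sum of all 5 was 136 to 150 CPM, with CDH5 at 0 counts. In these bulk samples, fewer cells making a transcript and less of it per cell cannot be told apart.

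Upon HMGB1 knockdown the ligand WNT5A, the antagonist SFRP1 and the Dickkopf family gene DKK3 were the abundant genes among the 10 that changed most. WNT5A went up, SFRP1 and DKK3 went down, and the scarce ligand WNT2 was lower in both isolates. These 4 genes passed the thresholds (adjusted p under 0.01 together with a log2-fold change beyond 0.6 in either direction) when the isolate entered edgeR's fit as a replicate block, 1 upward and 3 downward. In that fit 14.5% of the 15398 genes tested were called, 6.68% upward and 7.84% downward. The antagonist DKK1 was not called there (log2-fold change −0.16, adjusted p = 0.624 from edgeR). Without the block, none of the 10 genes was called, against 0.201% of all genes tested (0.0649% upward and 0.136% downward), and 3 of the 10 had an unadjusted p below 0.05, against 28.3% of all genes. DESeq2 called 3 of the 10 genes and 10% of all genes tested, and after RUVs with 1 factor it called 3 of the 10 and 11.8% of all genes. The isolates are the same in both groups, so the block is the paired form of the comparison. Without the block, 9 of the 10 genes had a negative log2-fold change, beside 7756 of all 15398 genes tested. The median of the 10 was −0.32, beside −0.0054 for all genes tested. Among 56 other Wnt pathway genes tested, 29 fell and the median was −0.020. In 6 of the 10 genes the control and knockdown libraries did not overlap, which was also the case for 59.9% of all genes tested. The 10 genes were chosen with earlier results of these data known, so their comparison with all genes is no separate test.

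**Figure D1:**
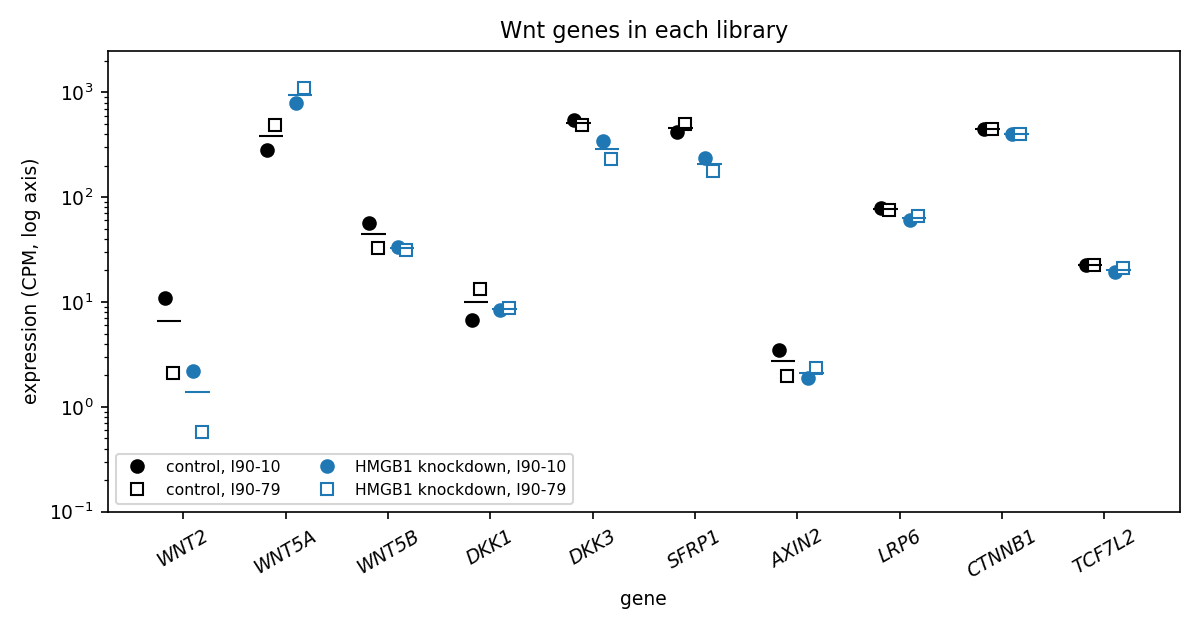
Expression of the 10 Wnt genes in each library, in CPM on a log axis. Circles are isolate I90-10 and squares isolate I90-79, black is control and blue is HMGB1 knockdown, and short lines mark the mean of each group of 2 libraries. WNT5A lies between 788 and 1113 CPM in the knockdown and between 285 and 490 CPM in the control libraries, while SFRP1 and DKK3 lie lower in both knockdown libraries than in either control.

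WNT5A (ENSG00000114251), on the minus strand of chromosome 3 of hg19 from 55499743 to 55523973, was the most responsive of the ligands with many reads. Its expression was 285 CPM in I90-10 and 490 CPM in I90-79 under control siRNA, and 788 and 1113 CPM in the same isolates upon knockdown. Both knockdown libraries were thus above both controls, and I90-79 was the higher isolate in each group. The mean rose 2.46-fold, from 387 ± 145 (SD, n = 2) to 951 ± 230 CPM (SD, n = 2). With the replicate block, the log2-fold change was 1.33 (SE 0.11, adjusted p = 1.3e-04 from edgeR). Without the block it was 1.30 (SE 0.32, adjusted p = 0.0686 from edgeR). In fits without the block, leaving out control replicate 1 gave 0.95 and leaving out control replicate 2 gave 1.74. The difference between the isolates enters both values. None of the 50-base pieces of its transcripts occurs in transcripts of another gene.

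WNT2 (ENSG00000105989), a canonical ligand encoded on the minus strand of chromosome 7 from 116916685 to 116963343, had few reads and differed strongly between the isolates. In I90-10 it had 11.0 CPM (324 counts) under control siRNA and 2.22 CPM (64 counts) upon knockdown. In I90-79 it had 2.09 CPM (77 counts) and 0.576 CPM (18 counts, exact 95% Poisson interval 10.7 to 28.4, which covers counting error only). Both isolates went down, but the I90-10 knockdown library was slightly above the I90-79 control, so the groups overlapped. The log2-fold change was −2.15 with the block (SE 0.25, adjusted p = 5.5e-04 from edgeR) and −2.23 without it (SE 0.96, adjusted p = 0.203). In fits without the block it was −0.59 when control replicate 1 was left out and −3.50 when knockdown replicate 1 was left out. Those fits break the pairing, so the difference between the isolates enters these values.

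WNT5B (ENSG00000111186), the paralog of WNT5A on the plus strand of chromosome 12 from 1639057 to 1756409, had 56.5 and 32.8 CPM in control and 33.5 and 31.5 CPM in knockdown libraries. A single library, the I90-10 control, stood above the other 3. The log2-fold change of −0.46 (SE 0.27, adjusted p = 0.316) did not pass the test, nor did −0.41 with the block (adjusted p = 0.0865 from edgeR). Leaving out control replicate 1 gave −0.016, and leaving out control replicate 2 gave −0.80. Both are fits without the block, into which the difference between the isolates enters. WNT5A and WNT5B share no 50-base piece of transcript.

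Levels of different genes were set side by side as CPM per kilobase of exon. Among the 19 human Wnt ligands, of which 10 had enough reads to be tested, WNT5A held 69.3% and 87.3% of the summed CPM per kilobase under control siRNA and 91.0% and 94.1% after knockdown. WNT5B held 21.3% and 9.04% in control and 5.99% and 4.12% in knockdown libraries. The share of WNT2 was 5.96% and 0.825% in control and 0.567% and 0.108% in knockdown libraries. In the control libraries the order of the 10 genes began with DKK3 at 102 ± 8.05 CPM per kilobase (SD, n = 2) and SFRP1 at 96.2 ± 11.0 (SD, n = 2), which overlapped, followed by CTNNB1 at 67.4 ± 0.148 (SD, n = 2) and WNT5A at 58.1 ± 21.8 (SD, n = 2), which also overlapped. In the knockdown libraries WNT5A came first at 143 ± 34.5 CPM per kilobase (SD, n = 2), without overlap with CTNNB1 at 60.7 ± 0.315 (SD, n = 2). CTNNB1 overlapped there with DKK3 at 57.2 ± 15.6 (SD, n = 2), and DKK3 with SFRP1 at 43.3 ± 8.54 (SD, n = 2). The other 6 genes reached at most 13.1 CPM per kilobase in any library, with AXIN2 last in 3 libraries and WNT2 last in the I90-79 knockdown.

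SFRP1 (ENSG00000104332), the secreted Frizzled-related protein that binds Wnt ligands, lies on the minus strand of chromosome 8 from 41119481 to 41167016. It had 421 and 495 CPM in the control libraries of I90-10 and I90-79 and 235 and 177 CPM in their knockdown libraries. Every knockdown value was below every control value, and the order of the isolates turned around between the groups. The mean fell 2.22-fold, from 458 ± 52.3 (SD, n = 2) to 206 ± 40.6 CPM (SD, n = 2). The log2-fold change was −1.16 with the block (SE 0.15, adjusted p = 8.9e-04 from edgeR). Without the block it was −1.15 (SE 0.19, adjusted p = 0.0296), the smallest adjusted p of the 10 genes and the only one below 0.05, against 8.44% of all genes tested below 0.05. Of the routes through DESeq2, the one without factors of unwanted variation called SFRP1 and the one with 1 factor from RUVs did not.

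DKK3 (ENSG00000050165), a divergent Dickkopf family member secreted by many mesenchymal cells, lies on the minus strand of chromosome 11 from 11984653 to 12031316. No other gene of the count files overlaps its exons, but in GENCODE version 44, which annotates DKK3 as a longer gene, USP47 on the opposite strand shares 5605 of the 12243 pieces of 50 bases in DKK3 transcripts. Between WNT2 and CFTR there are 123 such pieces of 4498, and between DKK1 and PRKG1-AS1 178 of 2166. Its control libraries had 544 and 487 CPM and its knockdown libraries 345 and 234 CPM, in the order I90-10 and I90-79. The knockdown values lay below both controls in either isolate. The mean fell 1.78-fold, from 515 ± 40.7 (SD, n = 2) to 289 ± 78.7 CPM (SD, n = 2). The log2-fold change was −0.86 with the block (SE 0.12, adjusted p = 0.0013 from edgeR) and −0.83 without it (SE 0.22, adjusted p = 0.0775). In fits without the block, leaving out knockdown replicate 2 gave −0.57, and leaving out knockdown replicate 1 gave −1.14.

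DKK1 (ENSG00000107984), the antagonist that blocks LRP co-receptors and itself a target of β-catenin, lies on the plus strand of chromosome 10 from 54074056 to 54077802. It had 6.74 and 13.3 CPM in control and 8.41 and 8.84 CPM in knockdown libraries. Both knockdown values lay between the control values, and the isolates moved in opposite directions. The log2-fold change of −0.22 (SE 0.34, adjusted p = 0.713 from edgeR) did not pass the test, nor did −0.16 with the block (adjusted p = 0.624). Leaving out control replicate 2 gave 0.36 in a fit without the block, in which the pairing is lost.

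**Figure D2:**
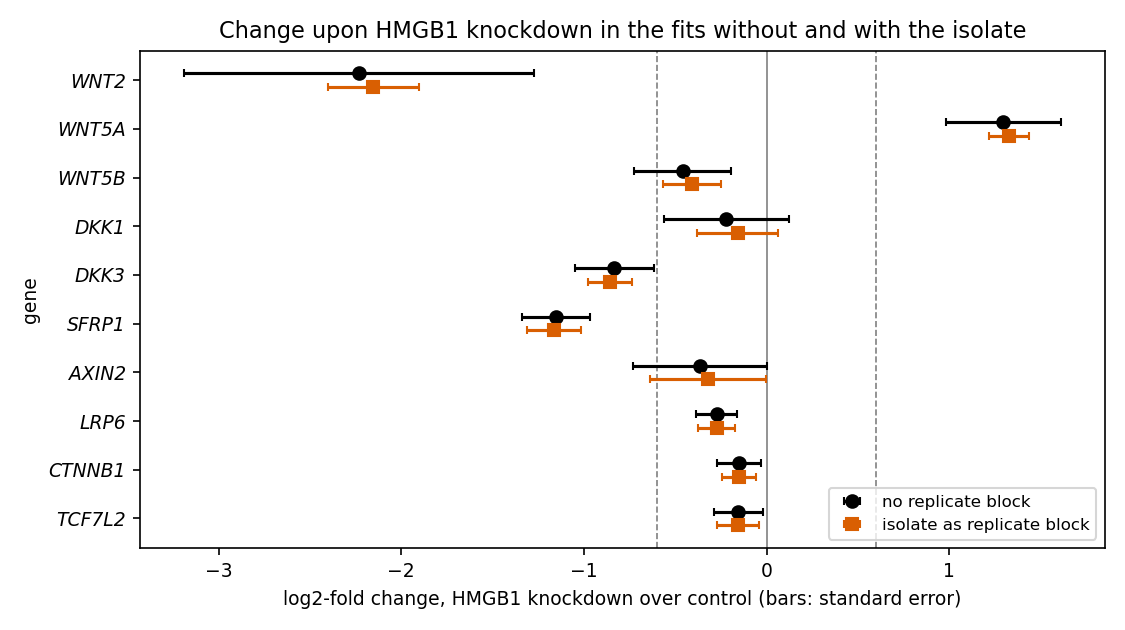
Log2-fold change upon HMGB1 knockdown for the 10 Wnt genes (x axis, knockdown over control) from edgeR's fit without (black) and with (orange) the isolate as a replicate block. Bars are standard errors, and dashed lines mark the threshold of 0.6. The estimates of the 2 fits lie close together, and the bars of WNT2 and WNT5A shorten most with the block, from 0.96 to 0.25 and from 0.32 to 0.11.

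The co-receptor LRP6, the transducer CTNNB1 and the transcription factor TCF7L2 did not pass the test. LRP6 (ENSG00000070018, chromosome 12, 12268959 to 12419946, minus strand) had 78.9 and 74.9 CPM in control and 61.1 and 66.3 CPM in knockdown libraries. CTNNB1 (ENSG00000168036, chromosome 3, 41236328 to 41301587, plus strand) had 445 and 446 CPM in control and 399.8 and 403 CPM in knockdown libraries. TCF7L2 (ENSG00000148737, chromosome 10, 114710009 to 114927437, plus strand) had 22.5 and 22.7 CPM in control and 19.3 and 21.3 CPM in knockdown libraries. In these 3 genes both knockdown values were below both controls, by small steps. Their log2-fold changes were −0.27 for LRP6 (SE 0.11, adjusted p = 0.189), −0.15 for CTNNB1 (SE 0.12, adjusted p = 0.462) and −0.15 for TCF7L2 (SE 0.13, adjusted p = 0.494), all from edgeR. None was called with the block (adjusted p = 0.0749, 0.255 and 0.344) or by DESeq2. Of the exonic bases of TCF7L2, 5.94% overlap an antisense gene.

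AXIN2 (ENSG00000168646), the scaffold of the β-catenin destruction complex and a widely used readout of canonical Wnt activity, lies on the minus strand of chromosome 17 from 63524681 to 63557765. It was the least expressed of the 10 genes per kilobase in the mean of both groups, with 3.51 and 1.98 CPM (103 and 73 counts) in control and 1.90 and 2.34 CPM (55 and 73 counts) in knockdown libraries. The groups overlapped, and the I90-10 control was the highest library. The log2-fold change was −0.36 (SE 0.37, adjusted p = 0.560 from edgeR) and −0.32 with the block (adjusted p = 0.482). Neither a change nor its direction was thus detected, and the part of the low counts in this was not tested. Leaving out control replicate 1 gave 0.10 in a fit without the block, in which the pairing is lost. Another gene on the same strand, ENSG00000266076, covers 25.3% of the exonic bases of AXIN2, and how reads on both were counted is not given in the sources used here.

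The changes were also read in each isolate alone, with 1 library for each condition and no test. WNT5A had a log2 change of 1.47 in I90-10 and 1.18 in I90-79, and WNT2 −2.32 and −1.86. SFRP1 had −0.84 in I90-10 and −1.48 in I90-79, and DKK3 −0.66 and −1.06, so both genes went down further in I90-79. CTNNB1 had nearly the same small change in both isolates, −0.15 and −0.15. The sign was shared by the isolates in 8 of the 10 genes, and DKK1 and AXIN2 were the exceptions, as were 21.7% of all genes tested.

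**Figure D3:**
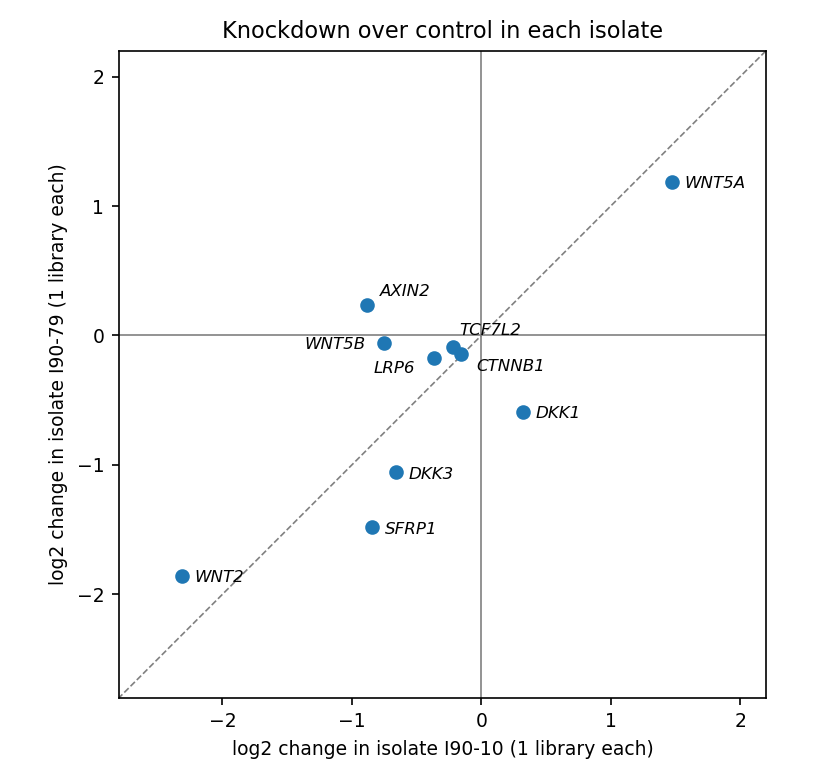
Log2 change upon HMGB1 knockdown in isolate I90-10 (x axis) and isolate I90-79 (y axis), 1 library for each condition and isolate, for the 10 Wnt genes. The dashed line marks equal change. WNT5A lies at 1.47 and 1.18 and WNT2 at −2.32 and −1.86, while AXIN2 and DKK1 lie in the quadrants of opposite sign.

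The isolates were also compared with each other across both siRNAs. Isolate and replicate number coincide in both groups, so anything else that differed between replicates 1 and 2 cannot be told apart from the isolate. WNT2 was lower in I90-79, by 5.28-fold between the control and 3.84-fold between the knockdown libraries, with a log2 difference of −2.24 (SE 0.25, adjusted p = 0.0033 from edgeR with a term for the siRNA). It was the only one of the 10 genes called between the isolates, and 1.67% of all genes tested were called there, 0.442% higher and 1.23% lower in I90-79. WNT5A was 1.72-fold higher in I90-79 between controls and 1.41-fold between knockdowns (log2 difference 0.64, adjusted p = 0.0146), which misses the threshold of 0.01. The log2 difference of I90-79 over I90-10 was −0.44 for WNT5B (adjusted p = 0.15), 0.53 for DKK1 (adjusted p = 0.209) and −0.36 for DKK3 (adjusted p = 0.118). For SFRP1, AXIN2, LRP6, CTNNB1 and TCF7L2 it lay between −0.29 and 0.078, with adjusted p between 0.650 and 0.974.

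A word of 6 bases, GCAGTT, had been found in earlier work on these counts to go with lower expression upon knockdown when it stands in a 3′ UTR. It is shown here because it sits in the transcripts of the genes that changed as well as of some that did not. Of 12359 genes tested with a 3′ UTR of at least 100 bases in the canonical GENCODE transcript, 36.2% hold at least 1 copy on the transcript strand. The median log2-fold change without the block was 0.069 for genes with 0 copies, −0.098 with 1 copy and −0.26 with at least 2 copies, while the median length of the 3′ UTR was 886, 2197 and 4188 bases. The medians come from the same counts in which the word was found, so they are no separate test of it. The genes were not matched for length. Of the 10 Wnt genes, 6 hold the word. DKK3 holds 4 copies in 1428 bases of 3′ UTR, LRP6 2 copies in 5101 bases, and WNT2, WNT5A, WNT5B and SFRP1 1 copy each. DKK1, AXIN2, CTNNB1 and TCF7L2 hold 0 copies. The copies of 5 genes, without that of SFRP1, whose sequence is not given here, are shown with the 8 bases on either side, 5′ to 3′ on the transcript strand of GRCh37, with the word in capitals.
DKK3 copy 1, chr11:11985769-11985790: ctgcaggaGCAGTTtgccaccc
DKK3 copy 2, chr11:11985558-11985579: ttttccacGCAGTTctttccat
DKK3 copy 3, chr11:11985290-11985311: agaccagaGCAGTTtcatctgg
DKK3 copy 4, chr11:11985035-11985056: cctctttgGCAGTTgcattagt
LRP6 copy 1, chr12:12271688-12271709: atttgaagGCAGTTcagcctaa
LRP6 copy 2, chr12:12270704-12270725: attaggtaGCAGTTttggagga
WNT2, chr7:116917862-116917883: tttctagaGCAGTTggccaagc
WNT5A, chr3:55501124-55501145: ctttgaaaGCAGTTtttataaa
WNT5B, chr12:1755937-1755958: cggcatctGCAGTTtacaggaa

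Among the genes called with the block, the word thus stood in the 3′ UTRs of WNT2, DKK3 and SFRP1, which fell, and of WNT5A, which rose. LRP6, with 2 copies, had a log2-fold change of −0.27. The part of the word in these changes was not tested.

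A list of 93 Wnt pathway genes, to which the 10 genes belong, gives the setting. Of these, 66 were tested, and 14 had 0 counts in every library. Without the block 0 of the 66 were called, 24 had an unadjusted p below 0.05, against 28.3% of all genes tested, and DESeq2 called 8, against 10% of all genes. The median log2-fold change was −0.075. With the block 9 were called upward and 9 downward, which is 27.3% of those tested beside 14.5% of all genes. The list was chosen with earlier results of these data known, and the 27.3% includes the 10 genes. The difference from all genes is therefore no separate test of the pathway. Of the 56 genes tested besides the 10 described above, 14 were called, 8 upward and 6 downward. The values that follow are from edgeR's fit with the block, in which 14.5% of all genes tested were called.

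The ligand WNT7B rose from 2.42 and 1.41 CPM in control to 8.28 and 6.12 CPM in knockdown libraries (log2-fold change 1.94, SE 0.21, adjusted p = 4.6e-04). WLS, which carries Wnt proteins to the cell surface, rose from 463 and 521 to 866 and 755 CPM (log2-fold change 0.72, adjusted p = 0.0024). PORCN, the enzyme that attaches the lipid, had a log2-fold change of 0.40 (adjusted p = 0.0828). The 3 genes called among 14 tested receptors and co-receptors were the Frizzled genes FZD8, which rose (1.73, adjusted p = 0.0017), and FZD2 and FZD4, which fell (−0.81, adjusted p = 0.0010, and −0.93, adjusted p = 0.0097). The levels of FZD8 ranged from 9.26 to 34.3 CPM in control and from 49.7 to 75.5 CPM in knockdown libraries.

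Of 16 genes listed as secreted and membrane Wnt antagonists, 6 were tested and 4 were called, beside 14.5% of all genes tested. SFRP1 and DKK3, which are among the 10 chosen genes, count among these 4. Without the block 0 of the 6 were called. SFRP1 and DKK3 were joined in their fall by APCDD1, a membrane-bound inhibitor, which went from 13.6 to 3.43 CPM in I90-10 and from 2.52 to 0.704 CPM in I90-79 (log2-fold change −1.93, SE 0.21, adjusted p = 4.4e-04). KREMEN1, a receptor for Dickkopf proteins, rose from 78.6 and 72.1 to 186 and 137 CPM (1.08, SE 0.11, adjusted p = 3.0e-04). In the R-spondin branch, whose secreted proteins raise Wnt receptor levels, RSPO3 rose from 0.443 and 1.49 CPM (13 and 55 counts) to 3.98 and 6.72 CPM (2.53, SE 0.30, adjusted p = 6.1e-04). The receptor LGR4 fell (−0.73, adjusted p = 0.0073). In edgeR's fit without the block the adjusted p was 0.069 for RSPO3 and 0.265 for APCDD1, whose groups overlapped.

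Inside the cell, 1 of 16 cytoplasmic transducers was called, TNKS2, a tankyrase that marks axin for degradation, which rose from 98.2 and 94.7 to 168 and 180 CPM (0.85, SE 0.096, adjusted p = 5.0e-04). Of 13 nuclear effectors, the corepressor TLE3 (0.79, adjusted p = 0.0013) and LEF1, a partner of β-catenin (0.83, adjusted p = 0.0099), rose, while CTNNBIP1, which keeps β-catenin from TCF factors (−0.87, adjusted p = 0.0012), and the coactivator PYGO1 (−0.69, adjusted p = 0.0073) fell. Of 9 common Wnt target genes tested, LEF1 was called upward and APCDD1 downward. The median log2-fold change of these 9 was 0.27, beside −0.0034 for all genes tested. In the fit without the block, 6 of the 9 rose and 3 fell.

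**Figure D4:**
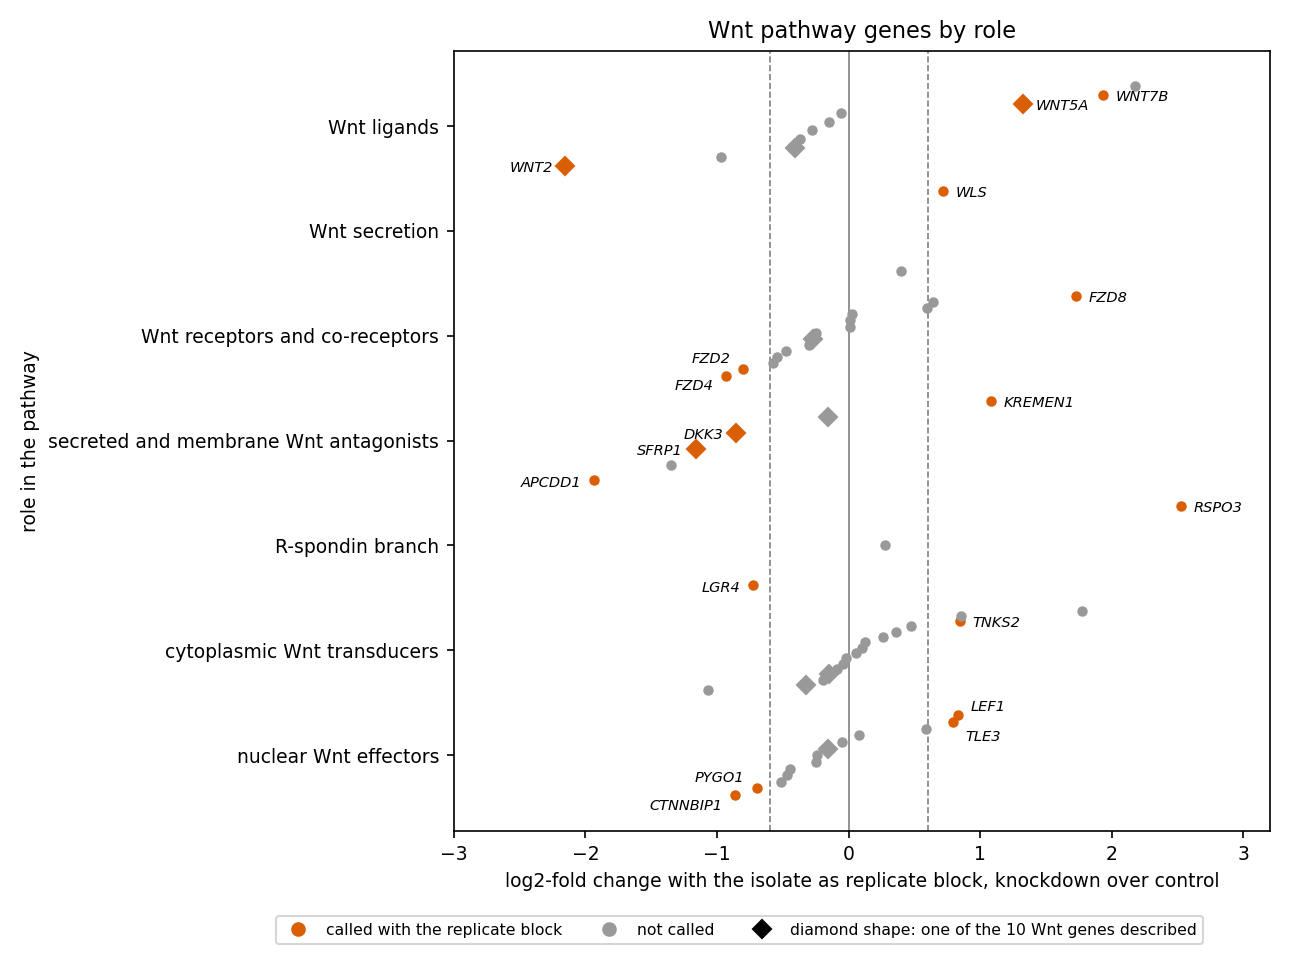
Log2-fold change upon HMGB1 knockdown, with the isolate as a replicate block, of 64 tested Wnt pathway genes by role, without the 2 genes listed only as targets. Orange marks and names are genes past both thresholds, grey marks are other genes, diamonds are the 10 Wnt genes described gene by gene, and dashed lines mark an absolute log2-fold change of 0.6. The 9 genes called upward and the 9 called downward are spread over the roles. In the antagonist role 3 of the 4 called genes lie on the left, and RSPO3 lies farthest to the right.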

How the data were processed

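The authors mapped paired-end reads of TruSeq poly(A) libraries to hg19 with default settings of STAR and deposited raw counts of unique reads per gene from featureCounts, without normalization. Versions, strand setting and the counting of read pairs are not given in the sources used here. Without the strand setting, reads of a gene and an overlapping antisense gene cannot be told apart. Symbols came from the reference table of gene names, which covered 55665 of 63677 identifiers. PECAM1, on the marker list, was not matched.

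The 10 genes, the word GCAGTT and the gene lists were chosen with earlier results of these data known. Low counts were filtered with filterByExpr of edgeR 4.0.16 (R 4.3.3, limma 3.58.1), which kept 15398 genes. Libraries were scaled by TMM, and knockdown was compared with control by the quasi-likelihood test with Benjamini-Hochberg adjustment over all genes tested. Each SE from edgeR is the absolute log2-fold change divided by the square root of the F statistic of that test. The code was tested on simulated data. Thresholds of 0.01 and 0.6 are those of the study's methods. The authors used RUVs and DESeq2. Here DESeq2 1.42.0, alone and after RUVs with 1 factor written out from its description, was an alternative. The difference between I90-10 and I90-79 in log2 CPM had a correlation of 0.46 between control and knockdown libraries over 15398 genes, which are not independent replicates. The isolates pair the libraries by the labels. Libraries of 1 group come from different isolates, with 2 libraries a group. An exact two-sided permutation test could then give no p below 0.333, so every p comes from models fitted across genes.

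The text names the 10 genes, HMGB1 and those other pathway genes that were called with the replicate block. PORCN and FRZB were added after their values were seen. The 3′ UTRs and transcript pieces came from GENCODE version 44 lifted to GRCh37, the same assembly as hg19.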

Additional observations from a re-analysis of the deposited data

Results flagged for a closer look

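DKK1 and AXIN2 changed in opposite directions in the isolates upon HMGB1 knockdown. DKK1 had a log2 change of 0.32 in I90-10 and −0.59 in I90-79, and AXIN2 had −0.88 in I90-10 and 0.24 in I90-79. With 1 library for each isolate and condition the difference was not tested, and 21.7% of all genes tested also had opposite signs. Groups of 2 libraries are too small for a search for outlying samples.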

How the results depend on the processing

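The number of the 10 genes called depended on the test. It was 0 without the replicate block, 4 with the isolate as a replicate block, 3 with DESeq2, 3 with RUVs and DESeq2, 4 without the filter on low counts and 1 at an adjusted p below 0.05, and 0 to 1 when single libraries were left out. For all genes tested, 31 were called, against 2235 with the replicate block, 1546 with DESeq2, 1816 with RUVs and DESeq2, 98 with bias-adjusted deviances, 2393 without the filter, 1243 at an adjusted p below 0.05 and 0 to 642 with single libraries left out, the 0 without either knockdown library. For the pathway list the numbers were 0, 18 with the replicate block, 8, 13, 17 without the filter, 5 at an adjusted p below 0.05 and 0 to 3. Between isolates 1 of the 10 genes was called, and 2 with DESeq2, without the filter or at an adjusted p below 0.05 (WNT2 and WNT5A), and 0 without a term for the siRNA. The number of genes tested was 27391 without the filter, of which 8.74% were called, and 16056 to 16210 with single libraries left out. The cause of the differences between settings was not tested. HMGB1 had a log2-fold change of −3.77 to −3.38 with single libraries left out, and lost its call without either knockdown replicate (adjusted p = 0.0487 and 0.0324). AXIN2 ranged from −0.72 to 0.10 and DKK1 from −0.63 to 0.36 with single libraries left out. With all libraries kept, none of the 80 values of the 10 genes under 8 other settings changed sign. Those settings refit the same libraries, so this does not bear on variation between libraries. A group left with 1 library is taken to vary like the other. Leaving out a library could not be fitted together with the block or for the isolates, since no residual degrees of freedom are left. The fits with single libraries left out thus have no term for the isolate, and the difference between the isolates enters their values. Counts of 18 to 324 reads limit WNT2, and counts of 55 to 103 limit AXIN2.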

Other observations

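Between the isolates, 3 of the 66 Wnt pathway genes tested were called, and all 3 were higher in I90-10. Of all genes tested 1.67% were called, 1.23% higher in I90-10 and 0.442% higher in I90-79. Besides WNT2 these were APCDD1 (log2 difference of I90-79 over I90-10 −2.37, adjusted p = 0.0021 from edgeR with a term for the siRNA) and FRZB, a secreted Frizzled-related protein (−2.23, adjusted p = 0.0098). FRZB had 10.8 and 1.55 CPM in the control and 2.94 and 1.09 CPM in the knockdown libraries of I90-10 and I90-79. Its log2-fold change upon knockdown was −1.35 with the replicate block (adjusted p = 0.016), which misses the threshold of 0.01. FRZB was picked after its values were seen. Here too the isolate cannot be told apart from the replicate.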
